A study of Mus musculus with 9 samples.

Results

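The genes of the nuclear pore and of nuclear transport were followed through a short treatment of mouse B-cell lymphoma cells with either of a pair of BET bromodomain inhibitors. Genes were taken by symbol. A gene entered when its name begins as that of a nucleoporin (Nup and a digit), an importin (Ipo, Kpna or Kpnb), an exportin (Xpo or Xpot) or a transportin (Tnpo), and when it averaged at least 1 CPM, its count scaled to the library total, over all 9 libraries. Of 43629 genes in the table, 44 had such a symbol and 41 reached that level, as did 12118 genes of the whole table. The 3 below it were Kpna2-ps, a processed pseudogene with 25 counts over the 9 libraries, Kpna7 with 4 counts, and Nup62cl with 0 counts, which allows up to 0.0775 CPM. Next to the threshold stood Nup210l at 2.80 CPM and Nup98 at 5.42 CPM inside it and Kpna2-ps at 0.661 CPM outside it. The rule used no difference between treatments. All 41 genes are annotated as protein-coding, hold 110 (Nup210l) to 11519 (Kpna2) counts over the 9 libraries, and passed the count filter of the test. Nup62 was not analysed here, and the pore proteins Nup58 and Nup42 stand in the table under the symbols Nupl1 and Nupl2, which the rule does not take.

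The cells were an Eµ-Myc lymphoma, clone 4242, grown in culture. In this model a Myc transgene under the immunoglobulin heavy chain enhancer drives B-lineage lymphoma, and cells of every group carry it. The groups were JQ1 at 1 µM, RG6146 at 2.5 µM and the solvent DMSO, each for 2 h and each with 3 libraries that the labels call biological triplicates. JQ1 is a widely used inhibitor of BET proteins, which bind acetylated histones, and the study presents RG6146 as a later inhibitor of the same proteins. All libraries come from 1 clone, so p-values describe the spread between its cultures, and the doses of the compounds differ. RNA was counted by 3′ sequencing (QuantSeq), which reads about 1 fragment per transcript near its poly(A) tail, so a value speaks of transcript amount near that end and not of splicing or protein.

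The libraries held 3410161 to 5031717 gene counts each. At this depth the 95% interval of a member's log2 fold change reached 0.24 to either side at the median. Of 12 B-cell markers, 11 averaged 1 CPM or more, and their sum was 1089 to 1271 CPM in DMSO libraries, 778 to 860 with JQ1 and 803 to 919 with RG6146. The single markers did not move alike. Ebf1 stood at 291 to 302, 152 to 162 and 170 to 182 CPM in these groups. Ighm stood at 328 to 430, 363 to 416 and 350 to 432 CPM. T- and NK-cell markers, 2 of 12 at 1 CPM or more and Trac and Ncr1 at 0, summed to 8.69 to 12.3 CPM in DMSO, 2.77 to 6.72 in JQ1 and 5.34 to 7.81 in RG6146 libraries. Stromal and endothelial markers summed to 132 to 143, 98.6 to 101 and 104 to 111 CPM. Of these 8 markers only 2 were at that level, Vim (104 to 108 CPM in DMSO) and Pecam1 (26.6 to 33.7). Erythroid markers, 4 of 7 at that level, summed to 3.53 to 19.2 CPM over all libraries. Myeloid markers, 11 of 15, summed to 164, 778 and 360 CPM under DMSO, to 82.1, 288 and 57.3 under JQ1 and to 89.5, 132 and 115 under RG6146, so that replicate 2 was highest in all 3 groups. Csf1r among them did not follow the sum, at 21.2 to 23.8, 26.8 to 33.1 and 22.5 to 34.1 CPM in these groups. With replicate 2 of DMSO and of JQ1 left out, 9 members were called after JQ1 and 6 after RG6146, against 10 and 8 with all libraries, and none was new. The part of the marker shifts in the results was not tested. In such bulk RNA, a change in the share of cells that hold a transcript and a change in its amount per cell cannot be told apart.

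The nuclear pore complex is a ring-shaped channel through the nuclear envelope. Its scaffold is built from the Y complexes of the outer rings and from the inner ring, membrane proteins anchor it, and proteins rich in phenylalanine-glycine repeats fill the channel. Cargo with a nuclear localisation signal is carried in by importin beta, often through an adaptor of the importin alpha family, and cargo with an export signal is carried out by exportins. The small GTPase Ran gives the direction: bound to GTP in the nucleus, it frees import cargo and loads exportins. Fast-growing lymphoma cells rely on this traffic for ribosome parts, RNAs and transcription factors, and Xpo1 is a drug target in blood cancers.

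After JQ1, 10 of the 41 genes were called by edgeR's quasi-likelihood test at an adjusted p below 0.05, which is 24.4% beside 28.9% of the 11002 genes tested. The genes that rose were Kpna1, Kpna2, Kpna4, Nup93 and Nup188, and those that fell were Nup37, Ipo8, Xpo1, Xpo4 and Xpo7. The split of 5 and 5 stands beside 13.6% of all genes called higher and 15.4% called lower. After RG6146, 8 genes were called, 19.5% beside 26.0% of all genes. Kpna1, Kpna2, Kpna3, Kpna4 and Nup93 rose, and Nup37, Ipo8 and Xpo4 fell, beside 12.5% of all genes called higher and 13.5% called lower. Both shares lie near or under the background, so the number of calls says nothing particular about the pore. The median log2 fold change of the members was -0.0036 after JQ1 and 0.04 after RG6146, against 0.0047 and 0.0086 for all tested genes. The 2 comparisons share their DMSO libraries and are therefore not independent of each other. They called 7 of the genes in both, 11 in either and 30 in neither. The libraries of JQ1 and DMSO did not overlap for 15 members (36.6%, beside 42.6% of all genes), and those of RG6146 and DMSO for 17 (41.5%, beside 40.9%). With libraries scaled by their spike-in RNAs (ERCC) in place of the gene counts, 1 member was called after each compound (Nup37 after JQ1, Kpna4 after RG6146), beside 10.9% and 9.83% of all genes. The median log2 fold changes of the families moved little, to 0.35 and 0.43 for importin alpha and -0.34 and -0.10 for exportins. The same scaling with a replicate block called 9 and 7 members, beside 25.7% and 23.7% of all genes. Scaled by library size alone, which lowers the median of all genes to -0.13 after JQ1 and -0.10 after RG6146, the calls split into 3 higher and 7 lower after JQ1 and 4 higher and 6 lower after RG6146, and 27.2% and 29.7% of all called genes were higher, against 47.0% and 48.0%.

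**Figure D1:**
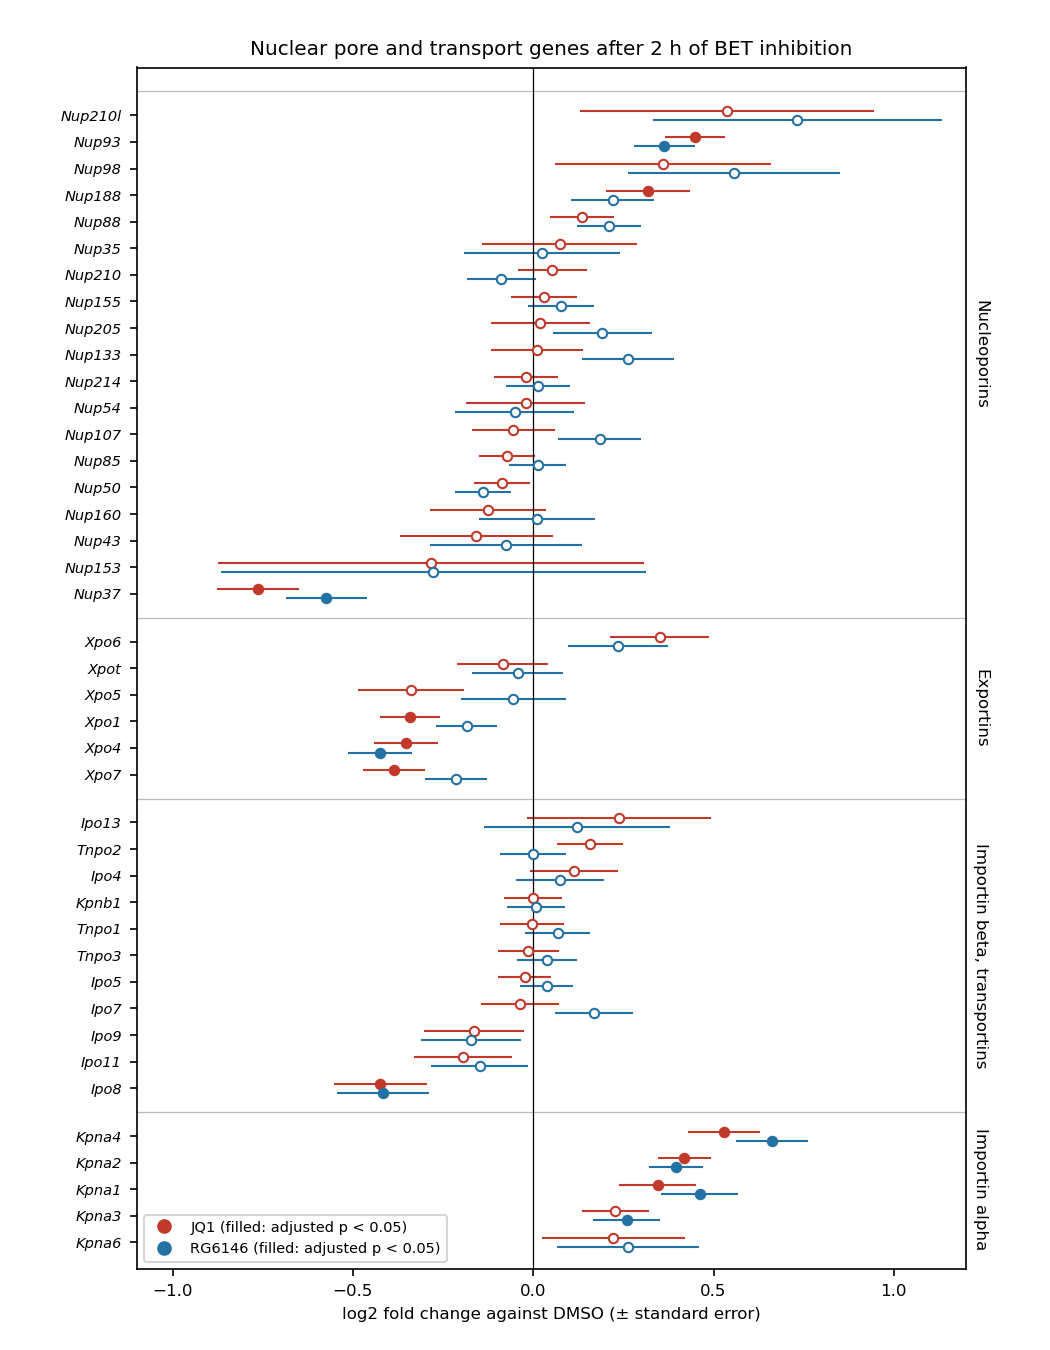
Log2 fold change against DMSO (horizontal axis, ± standard error) of the 41 genes, by family, for JQ1 (red) and RG6146 (blue), with filled points for an adjusted p below 0.05. All 5 importin alpha genes lie to the right of 0 and 5 of the 6 exportins to the left, while the importin beta family and the nucleoporins lie on both sides.

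Most importin alpha genes were higher after the compounds. These adaptors recognise the classical nuclear localisation signal and hand the cargo to importin beta, and they differ in the cargo they prefer. Of 5 tested, 3 rose after JQ1 and 4 after RG6146, beside 13.6% and 12.5% of all genes called higher. None fell, and all 5 log2 fold changes were above 0 after either compound under each of the scalings tried. The family median was 0.34 after JQ1 and 0.40 after RG6146, and 0.21 and 0.29 with library size scaling, where 2 and 3 were called higher. Summed over the family, DMSO libraries had 446 ± 29.9 CPM (SD, n = 3), JQ1 libraries 587 ± 14.7 and RG6146 libraries 599 ± 20.1, which is 31.6% and 34.3% more. Levels of genes in the text are CPM scaled by TMM and follow the order of replicates 1, 2 and 3.

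Kpna2, a general import adaptor that is abundant in dividing cells, lies at chr11:106988629-106999541 in mm10 (minus strand). It stood at 254, 231 and 252 CPM under DMSO, 317, 348 and 321 under JQ1 and 314, 343 and 313 under RG6146. Every treated library was above every DMSO library. It rose by 0.42 ± 0.07 (SE) on the log2 scale after JQ1, or 1.34-fold (adjusted p = 3.7e-04), and by 0.40 ± 0.07 after RG6146, or 1.32-fold (adjusted p = 6.6e-04).

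Kpna4 (chr3:69067149-69127113, minus strand), an adaptor that carries NF-kappaB subunits among other cargo, had the family's largest fold change. Its level was 69.6, 61.4 and 66.9 CPM under DMSO, 106, 87.1 and 92.3 under JQ1 and 115, 103 and 94.96 under RG6146, without overlap between DMSO and either compound. It rose by 0.53 ± 0.10 on the log2 scale after JQ1 (1.44-fold, adjusted p = 6.3e-04) and by 0.66 ± 0.10 after RG6146 (1.58-fold, adjusted p = 9.0e-05).

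Kpna1 (chr16:35978750-36037131, plus strand), which imports STAT proteins among other cargo, went from 59.4, 48.05 and 57.3 CPM to 64.2, 71.6 and 73.99 under JQ1 and 83.002, 75.9 and 68.4 under RG6146. The groups again did not overlap. The log2 fold change of 0.34 ± 0.11 after JQ1 (adjusted p = 0.0209) lost its call without DMSO replicate 2 (adjusted p = 0.102), JQ1 replicate 2 (0.0538) or JQ1 replicate 3 (0.0813), in DESeq2 (0.0646) and with library size scaling (0.181). That of 0.46 ± 0.11 after RG6146 had an adjusted p of 0.00355.

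Kpna3 (chr14:61365211-61439874, minus strand), a near relative of Kpna4, stood at 68.8, 57.7 and 58.5 CPM under DMSO, 72.4, 74.5 and 70.1 under JQ1 and 71.8, 74.1 and 75.9 under RG6146. The lowest treated library lay just above the highest DMSO library. The log2 fold change after JQ1 was 0.23 ± 0.09 (adjusted p = 0.0755), and a call appeared without DMSO replicate 1 (0.0241). After RG6146 it was 0.26 ± 0.09 (adjusted p = 0.0472), a call at the edge that 16 of the 19 alternatives ended, among them leaving out DMSO replicate 2 (0.156) or 3 (0.148), JQ1 replicate 1 (0.0584) or 3 (0.0542) or any single RG6146 library (0.0761, 0.1 and 0.107). Kpna6, the remaining adaptor, varied more between its libraries, with 22.8, 15.9 and 13.7 CPM under DMSO, 17.3, 22.4 and 22.2 under JQ1 and 23.7, 16.4 and 23.2 under RG6146. Its log2 fold changes of 0.22 ± 0.20 and 0.26 ± 0.20 did not pass the test (adjusted p = 0.442 and 0.357).

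The promoters of Kpna2 and Kpna4 are printed because these members rose most clearly, and those of Xpo1, Nup93 and Nup37 follow beside their values. Each is 300 bases long, from 250 before to 50 after a RefSeq transcript start in GRCm38.p6, 5′ to 3′ on the gene's strand (Kpna2 at chr11:106999476-106999775, minus strand, and Kpna4 at chr3:69127043-69127342, minus strand). Capitals mark 3 motifs, each read on both strands: the CCAAT box, the GC box with the letters GGGCGG, and the E-box with the letters CACGTG, which reads the same on both strands and is bound by Myc with Max.
Kpna2: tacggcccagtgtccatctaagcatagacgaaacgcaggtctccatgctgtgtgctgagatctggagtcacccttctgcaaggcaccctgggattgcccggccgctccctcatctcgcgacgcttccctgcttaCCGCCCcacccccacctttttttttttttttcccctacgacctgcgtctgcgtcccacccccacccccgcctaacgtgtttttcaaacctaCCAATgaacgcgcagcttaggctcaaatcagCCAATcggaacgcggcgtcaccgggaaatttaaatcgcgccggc
Kpna4: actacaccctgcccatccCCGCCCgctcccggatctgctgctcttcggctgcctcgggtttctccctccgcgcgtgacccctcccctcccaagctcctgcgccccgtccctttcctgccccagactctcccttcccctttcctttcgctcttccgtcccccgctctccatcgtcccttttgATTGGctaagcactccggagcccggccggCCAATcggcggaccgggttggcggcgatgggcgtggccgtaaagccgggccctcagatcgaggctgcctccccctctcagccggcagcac
Both windows hold CCAAT on 2 sites, counting both strands, and GGGCGG on 1 site, and neither holds CACGTG. Of the 41 genes, 32 had a promoter in the RefSeq table, with 39 windows in all, and Kpna1, Kpna3, Kpna6, Nup210l, Nup35, Nup43, Nup85, Xpo4 and Xpo7 had none. CCAAT stood in 17 of the 32 genes (53.1%) against 41.1% of the 27025 genes in the table, GGGCGG in 23 (71.9%) against 38.2%, and CACGTG in 7 (21.9%) against 8.09%. The genes with CACGTG were Ipo4, Ipo7, Nup188, Nup54, Nup93, Tnpo2 and Xpot, of which Nup93 and Nup188 were called higher after JQ1. The member windows were also richer in G and C, with a median of 65.3% against 52.7% over all windows. The 27025 genes were not limited to those at 1 CPM or more, as the members were. The part of base composition and of expression in the motif shares was not tested.

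The exportins taken by symbol were lower or did not pass the test. They bind cargo together with Ran-GTP in the nucleus and release it in the cytoplasm. Of 6 tested, 3 fell after JQ1 and 1 after RG6146, beside 15.4% and 13.5% of all genes called lower. None rose, and 5 of the 6 log2 fold changes lay below 0 after either compound (4 of 6 after RG6146 when spike-in scaling was joined with a replicate block). The family median was -0.34 after JQ1 and -0.12 after RG6146. With library size scaling it was -0.48 and -0.23, and 4 and 3 exportins were called lower. The summed level was 526 ± 2.58 CPM (SD, n = 3) under DMSO, 448 ± 13.5 under JQ1 and 475 ± 13.2 under RG6146, a change of -15.0% and -9.81%.

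Xpo1 (chr11:23256041-23298249, plus strand) is the main exporter of proteins with a leucine-rich export signal and also takes part in ribosome and small RNA export. Its promoter (chr11:23255791-23256090, plus strand) holds CCAAT on 2 sites and GGGCGG on 1 site.
Xpo1: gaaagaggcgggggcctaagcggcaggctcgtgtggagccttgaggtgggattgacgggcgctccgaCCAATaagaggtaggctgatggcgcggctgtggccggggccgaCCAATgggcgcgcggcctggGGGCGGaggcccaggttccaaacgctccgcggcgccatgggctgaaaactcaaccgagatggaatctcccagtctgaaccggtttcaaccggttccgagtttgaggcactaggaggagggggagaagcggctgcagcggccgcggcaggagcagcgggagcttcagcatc
Its level was 179, 158 and 152 CPM under DMSO, 135, 123 and 127 under JQ1 and 150.3, 146 and 134 under RG6146. All libraries of both compounds lay below all DMSO libraries, and the mean was lower under JQ1 than under RG6146. After JQ1 its log2 fold change was -0.34 ± 0.08 (adjusted p = 0.00511). After RG6146 it was -0.18 ± 0.08, with an adjusted p of 0.119 that fell to 0.0172 with library size scaling. The difference between the compounds was 0.16 ± 0.08 with a 95% interval of -0.02 to 0.33, which does not separate them.

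Xpo4 (chr14:57577521-57665430, minus strand), which exports the translation factor eIF5A, was at 70.9, 65.7 and 66.2 CPM under DMSO, 53.7, 52.8 and 52.3 under JQ1 and 51.5, 49.6 and 49.98 under RG6146. Its treated libraries were among the most even of all members. It fell after both compounds, with log2 fold changes of -0.35 ± 0.09 (adjusted p = 0.00608) and -0.42 ± 0.09 (adjusted p = 0.00175).

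Xpo7 (chr14:70654246-70766628, minus strand), an exportin with a broad range of cargo, stood at 109, 98.4 and 98.5 CPM under DMSO, 80.6, 81.6 and 72.2 under JQ1 and 87.1, 92.1 and 84.97 under RG6146. The RG6146 libraries lay between the other groups and overlapped neither. On the log2 scale its change was -0.39 ± 0.09 after JQ1 (adjusted p = 0.00260) and -0.21 ± 0.09 after RG6146 (adjusted p = 0.0785, or 0.0127 with library size scaling).

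The other exportins did not pass the test. Xpo5, which carries microRNA precursors, had log2 fold changes of -0.34 ± 0.15 after JQ1 (adjusted p = 0.0965) and -0.06 ± 0.15 after RG6146. Xpo6, which exports actin with profilin, was the only one with values above 0, at 0.35 ± 0.14 (adjusted p = 0.0660) and 0.23 ± 0.14. Xpot, the tRNA exporter, stood at -0.08 and -0.04.

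Importins of the beta family carry cargo directly or with an adaptor, and of 11 tested only Ipo8 passed the test. That is 9.09% called after either compound, beside 28.9% of all genes after JQ1 and 26.0% after RG6146. The summed level of the family was 928 ± 58.3 CPM (SD, n = 3) under DMSO, 919 ± 5.69 under JQ1 and 943 ± 18.9 under RG6146. Ipo8 (chr6:148770683-148831467, minus strand), which imports Argonaute proteins, was at 30.8, 35.5 and 31.9 CPM under DMSO, 22.7, 27.4 and 23.01 under JQ1 and 24.6, 27.1 and 21.8 under RG6146. Neither compound overlapped DMSO, and the 2 compounds covered nearly the same range. Its log2 fold change was -0.42 ± 0.13 after JQ1 (adjusted p = 0.0187) and -0.42 ± 0.13 after RG6146 (adjusted p = 0.0222). Neither call held in DESeq2 (adjusted p = 0.106 and 0.12). The JQ1 call was lost without DMSO replicate 2 (0.0807), JQ1 replicate 1 (0.083) or JQ1 replicate 3 (0.0726), and the RG6146 call without DMSO replicate 2 (0.093), RG6146 replicate 1 (0.0598) or RG6146 replicate 3 (0.0953).

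Kpnb1, importin beta itself and the partner of the adaptors that rose, stood at 196, 191 and 171 CPM under DMSO, 190.2, 179.7 and 188 under JQ1 and 199.98, 177 and 184 under RG6146. The ranges of the 3 groups overlapped throughout. Its log2 fold change was -0.00056 after JQ1, with a 95% interval of -0.17 to 0.17, and 0.01 after RG6146 (-0.16 to 0.18). Of the transportins, Tnpo1, which carries hnRNP proteins, stood at -0.0036 and 0.07 after JQ1 and RG6146, its relative Tnpo2 at 0.16 and -0.0011, and Tnpo3, which carries SR splicing factors, at -0.01 and 0.04. Ipo5 and Ipo7, carriers of ribosomal proteins and histones, stood at -0.02 and -0.04 after JQ1 and 0.04 and 0.17 after RG6146. The histone carriers Ipo4 and Ipo9 had 0.11 and -0.16 after JQ1 and 0.07 and -0.17 after RG6146. Ipo11 had -0.19 and -0.15, and Ipo13, which works in both directions, 0.24 and 0.12. None of these 10 passed the test after either compound.

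**Figure D2:**
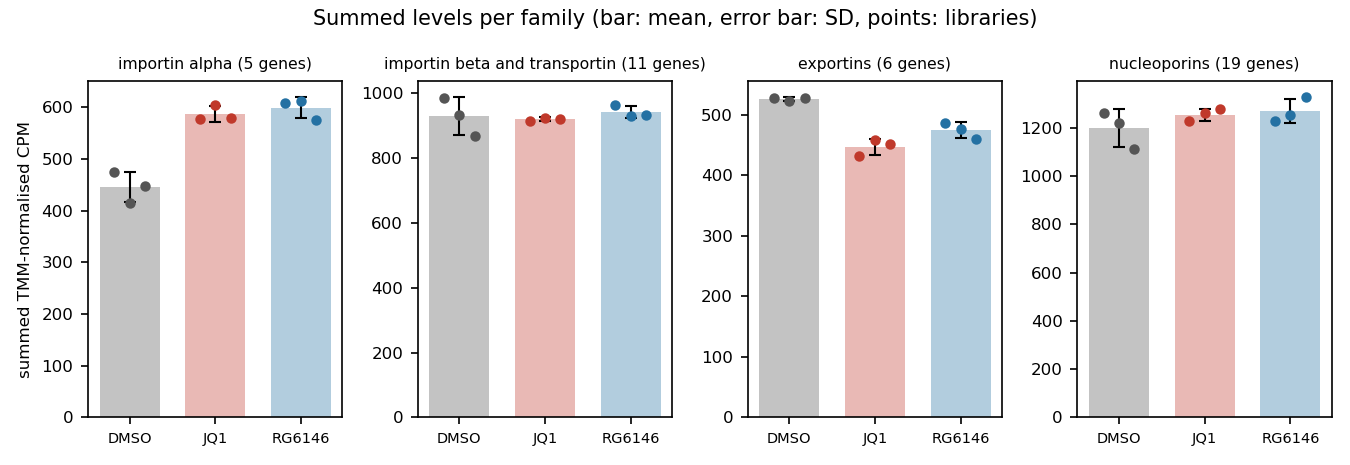
Summed level (vertical axis, TMM-normalised CPM) of each family in each group; bars are means, error bars the SD and points the 3 libraries. Importin alpha is higher in all 6 treated libraries (576 to 613 CPM) than in DMSO (415 to 474), exportins are lower (432 to 487 against 523 to 528), and the other families overlap.

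Of the 19 nucleoporins, 2 rose and 1 fell after JQ1, which is 15.8% called beside 28.9% of all genes. After RG6146, 1 rose and 1 fell, or 10.5% beside 26.0%. The nucleoporins summed to 1199 ± 78.8 CPM (SD, n = 3) under DMSO, 1255 ± 25.1 under JQ1 and 1270 ± 50.2 under RG6146. Nup93 and Nup188, which rose, both belong to the inner ring, and Nup37, which fell, to the Y complex of the outer rings.

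Nup93 (chr8:94214564-94317227, plus strand) links the parts of the inner ring. The RefSeq table gives it more than 1 window, and that at chr8:94266597-94266896 (plus strand) holds CCAAT on 1 site and neither of the other motifs. The window printed here (chr8:94214314-94214613, plus strand) holds CACGTG with its first base 175 bases before the start, running into a GGGCGG site. It is the only member window in which motifs of different kinds overlap.
Nup93: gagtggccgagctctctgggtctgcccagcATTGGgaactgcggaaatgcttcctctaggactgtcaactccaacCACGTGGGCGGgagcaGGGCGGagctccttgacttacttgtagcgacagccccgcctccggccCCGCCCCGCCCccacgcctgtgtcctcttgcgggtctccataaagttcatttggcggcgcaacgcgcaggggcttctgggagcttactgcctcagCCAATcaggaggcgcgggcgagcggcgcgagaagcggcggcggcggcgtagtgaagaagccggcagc
Nup93 stood at 205, 243 and 189 CPM under DMSO, 290.4, 284 and 294 under JQ1 and 267, 277 and 275 under RG6146. The treated libraries were tight and lay above all DMSO libraries, of which replicate 2 was the highest. It rose by 0.45 ± 0.08 on the log2 scale after JQ1 (1.36-fold, adjusted p = 6.2e-04) and by 0.36 ± 0.08 after RG6146 (1.29-fold, adjusted p = 0.00378).

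Nup188 (chr2:30286397-30344266, plus strand), a large scaffold protein bound to Nup93, was at 54.4, 62.8 and 59.9 CPM under DMSO, 81.2, 64.7 and 74.5 under JQ1 and 60.7, 65.3 and 80.2 under RG6146. Under JQ1 the lowest library lay just above the highest DMSO library, and under RG6146 the groups overlapped. Its rise after JQ1, 0.32 ± 0.12 on the log2 scale, passed narrowly (adjusted p = 0.0466). The call was lost without DMSO replicate 1 (0.154), 2 (0.0525) or 3 (0.0854), without JQ1 replicate 1 (0.196) or 3 (0.107), in DESeq2 (0.11) and with library size scaling (0.231). After RG6146 it was 0.22 ± 0.12 (adjusted p = 0.176). An annotated gene on the same strand, Gm28038, overlaps Nup188 at 8.004 CPM, so reads may have been shared. The other inner ring genes did not pass the test: Nup155 stood at 0.03 and 0.08 after JQ1 and RG6146, Nup205 at 0.02 and 0.19, and Nup35 at 0.07 and 0.02.

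Nup37 (chr10:88146992-88178390, plus strand) had the largest fold change of the called members after JQ1. It is a small propeller protein at the rim of the Y complex. The RefSeq table gives it 2 overlapping windows, of which the first (chr10:88146742-88147041, plus strand) holds CCAAT on 1 site and neither of the other motifs.
Nup37: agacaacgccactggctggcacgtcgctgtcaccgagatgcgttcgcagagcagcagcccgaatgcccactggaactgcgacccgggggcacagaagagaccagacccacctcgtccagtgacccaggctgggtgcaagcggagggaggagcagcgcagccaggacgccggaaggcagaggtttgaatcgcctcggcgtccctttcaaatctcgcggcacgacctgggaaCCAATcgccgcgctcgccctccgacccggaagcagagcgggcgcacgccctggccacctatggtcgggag
Its level was 41.6, 38.1 and 41.7 CPM under DMSO, 23.8, 25.2 and 22.5 under JQ1 and 28.3, 28.6 and 24.8 under RG6146, so that every treated library was far below the lowest DMSO library. The log2 fold change was -0.76 ± 0.11 after JQ1, or 0.589 of the DMSO level (adjusted p = 6.8e-05), and -0.57 ± 0.11 after RG6146, or 0.672 of it (adjusted p = 9.7e-04). The other 5 Y complex members did not pass the test. After JQ1 they were at -0.07 (Nup85), -0.05 (Nup107), 0.01 (Nup133), -0.13 (Nup160) and -0.16 (Nup43). After RG6146 they were at 0.01, 0.18, 0.26, 0.01 and -0.08 in the same order. Of 3 Y complex genes outside the symbol rule, 1 was called higher after JQ1, beside 13.6% of all genes, and 0 after RG6146. It was Ahctf1, named after its values were seen, at 0.25 ± 0.08 (adjusted p = 0.0213) and 0.15 ± 0.08 (adjusted p = 0.161). Its call was not followed over the alternatives. Seh1l and Sec13 did not pass the test.

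**Figure D3:**
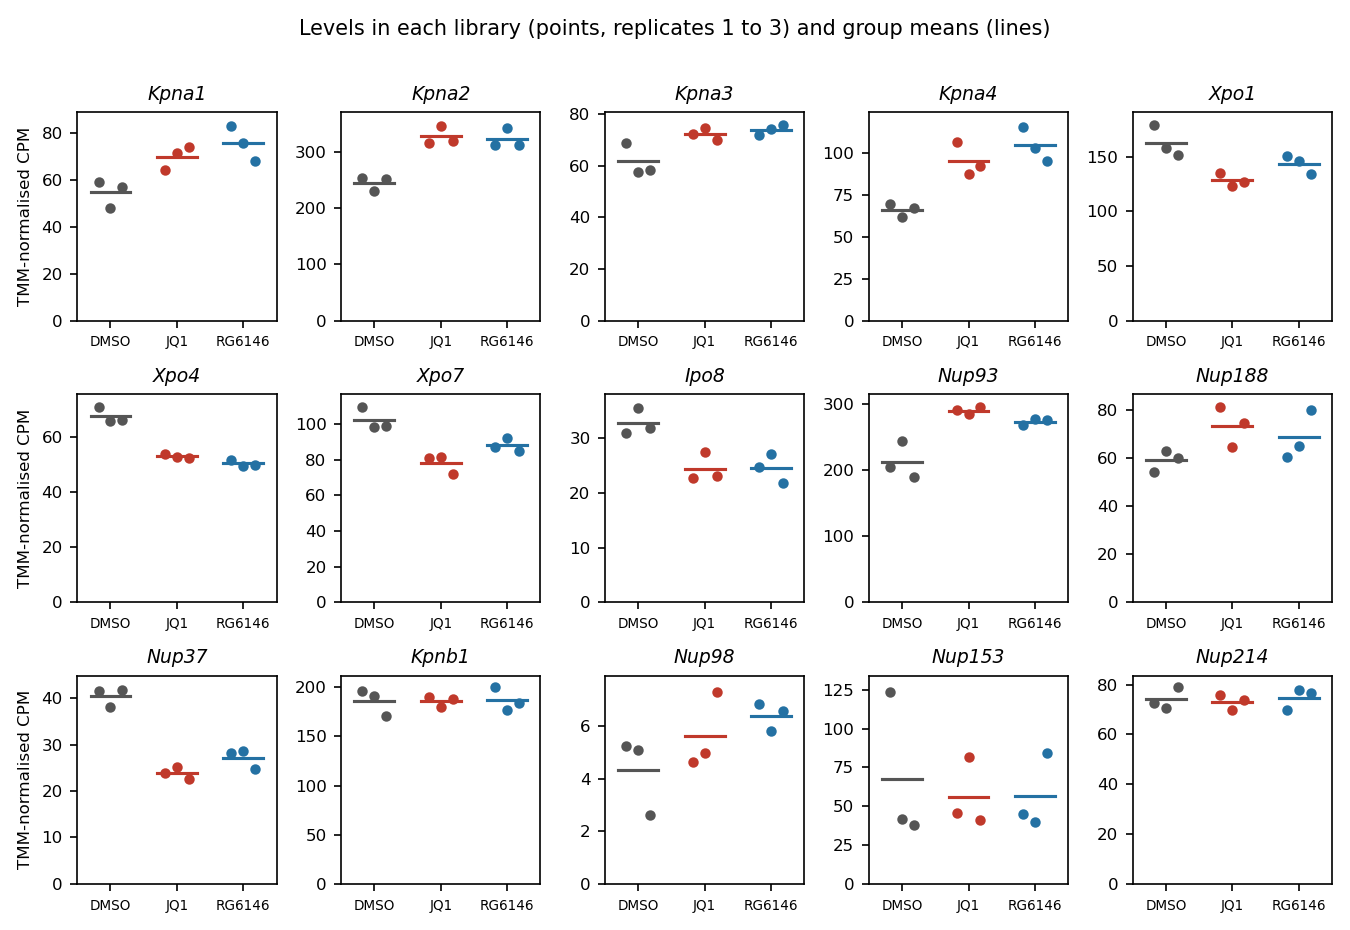
Level of 15 members (vertical axis, TMM-normalised CPM, from 0) in each library, with points for replicates 1 to 3 from left to right and a line for the group mean. Nup37 separates all treated libraries (22.5 to 28.6 CPM) from DMSO (38.1 to 41.7), while Nup153 has 1 high library in each group.

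Nucleoporins that face the channel or its ends did not pass the test. Nup98, a mobile repeat protein that works with Rae1, was rare in these libraries at 5.27, 5.12 and 2.64 CPM under DMSO, 4.63, 4.998 and 7.32 under JQ1 and 6.84, 5.82 and 6.59 under RG6146. The RG6146 libraries lay above those of DMSO, and those of JQ1 overlapped them. Its log2 fold changes of 0.36 ± 0.30 and 0.56 ± 0.29 had adjusted p-values of 0.405 and 0.179. Nup214, a repeat protein of the cytoplasmic face, was even over all groups, at 72.8, 70.5 and 79.1 CPM under DMSO, 75.8, 69.7 and 73.99 under JQ1 and 69.8, 77.9 and 76.8 under RG6146. Its log2 fold changes were -0.02 ± 0.09 and 0.01 ± 0.09, with 95% intervals of -0.21 to 0.17 and -0.17 to 0.20. Its partner Nup88 had 0.14 and 0.21, and the channel protein Nup54 -0.02 and -0.05.

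Nup153, a basket protein, could not be judged. It stood at 123, 42.1 and 37.9 CPM under DMSO, 45.9, 81.6 and 41.05 under JQ1 and 45.1, 39.7 and 84.3 under RG6146. In each group 1 library was high, and it had a different replicate number each time. The CV was 71.1% under DMSO, 39.5% under JQ1 and 43.1% under RG6146, and the 95% interval of the log2 fold change after JQ1 ran from -1.72 to 1.15. Over the alternatives the value after JQ1 lay between -0.90 and 0.49, so its sign was not settled. Nup50, its partner in the basket, stood at -0.09 and -0.14 after JQ1 and RG6146. The membrane protein Nup210 had 0.05 and -0.09. Its relative Nup210l, at 2.06 ± 0.179 CPM (SD, n = 3) under DMSO the lowest member, had 0.54 ± 0.41 and 0.73 ± 0.40, and neither passed the test (adjusted p = 0.349 and 0.192).

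Reads of other genes could enter some of these values, since the strand setting of the counting is not given in the sources used here. Of the members, 18 overlap an annotated gene on the opposite strand, and for 11 such a gene averaged 1 CPM or more. Among called members this concerned only Kpna1, where Gm15564 had 2.48 CPM, and on its own strand Kpna4 overlaps Gm37558 at 2.38 CPM and Gm22009 at 1.85 CPM. Among those not called, Irf5 (149 CPM) overlaps Tnpo3, and Gm5453 (149 CPM, and 456 CPM in RG6146 replicate 2) overlaps Tnpo1. Gm20388 (26.1 CPM) overlaps Nup133, Rabep1 (70.9 CPM) overlaps Nup88 and Pcmt1 (63.3 CPM) overlaps Nup43. Gm11583 (22.8 CPM) overlaps Kpnb1, and Fam78a (19.8 CPM) and Gm16534 (17.9 CPM) overlap Nup214.

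RG6146 against JQ1 asked whether the treatments differ in these genes, at doses that are not matched. No member passed edgeR's test, and none had an unadjusted p under 0.05. Over all 11002 genes 1 was called, or 0.00909%. The groups did not overlap for 7 members (17.1%), beside 9.93% of all genes. The count stayed at 0 under all 19 alternatives, DESeq2 among them. The members nearest to a difference were Nup107 (0.24 ± 0.11 on the log2 scale, 95% interval -0.01 to 0.48), Nup133 (0.25 ± 0.13, -0.01 to 0.52) and Xpo7 (0.17 ± 0.09, -0.01 to 0.35), each with an adjusted p of 0.999. All 3 were higher under RG6146. Nup107 was at 109, 119 and 88.9 CPM under DMSO, 87.3, 104 and 114 under JQ1 and 115, 116 and 130.4 under RG6146, and Nup133 at 25.2, 22.5 and 27.8, 26.1, 25.5 and 24.6 and 28.05, 28.3 and 34.3. For the 11 members called after either compound, the highest upper bound of the 95% interval of the difference was 0.43 on the log2 scale, so differences under that size are within what 3 libraries per group leave undecided. The calls of Xpo1, Xpo7 and Nup188 after JQ1 alone, and of Kpna3 after RG6146 alone, do not by themselves show a difference between the compounds.

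The members' changes were small. After JQ1 the median size of the log2 fold change, in either direction, was 0.16 for the 41 genes and 0.29 for all tested genes. After RG6146 it was 0.17 against 0.27. No member moved by more than 1 on the log2 scale after either compound, which 9.76% of all genes did after JQ1 and 9.56% after RG6146. The largest were Nup37 after JQ1 and, without passing the test, the rare Nup210l after RG6146. The members are also better counted than most genes, with a median of 63.9 CPM against 20.1, and low counts widen fold changes. Among the 2453 genes at or above the members' median level, the median size was 0.19 after JQ1 and 0.17 after RG6146, and 3.22% and 2.77% moved by more than 1.

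**Figure D4:**
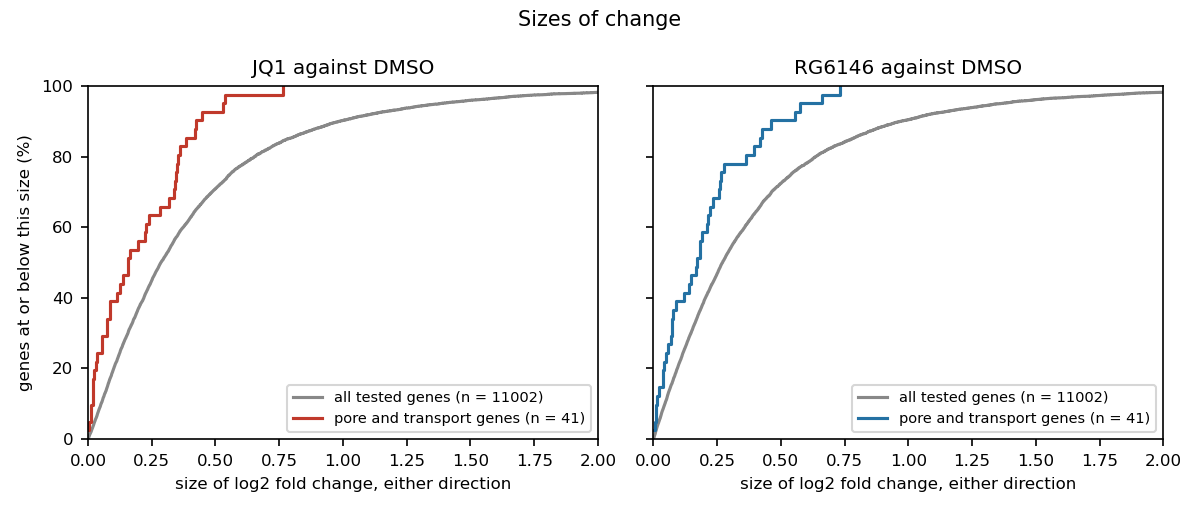
Share of genes (vertical axis, percent) with a log2 fold change of at most the size on the horizontal axis, in either direction, for the 41 members (coloured) and all 11002 tested genes (grey), after JQ1 (left) and RG6146 (right). The members' curves end at 0.76 and 0.73, where the curve of all genes has not reached 100%.

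Further genes of the pathway came from a list of 74 symbols outside the rule: other pore proteins, the Ran cycle, RNA export, and the nuclear envelope. Of these 69 were found and 64 tested. After JQ1, 20 were called (31.2%, beside 28.9% of all genes), 14 higher and 6 lower, and after RG6146 16 of the 64 were called, beside 26.0% of all genes, 10 higher and 6 lower. With library size scaling the split was 5 higher and 13 lower after JQ1 and 8 higher and 10 lower after RG6146. RG6146 against JQ1 had 0 calls, with 3 genes at an unadjusted p under 0.05 and 0 calls in DESeq2.

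The largest changes of that list were among genes of RNA export. After JQ1 the largest was that of Alyref2, a relative of the mRNA export adaptor Alyref named here after its values were seen, at -0.95 ± 0.26 on the log2 scale (adjusted p = 0.0108) and -0.95 ± 0.26 after RG6146 (adjusted p = 0.0122), from a low level of 9.68 ± 1.49 CPM (SD, 3 libraries) under DMSO. Phax, the adaptor that joins capped small nuclear RNA to Xpo1, fell from 46.1, 55.2 and 44.1 CPM to 28.6, 26.4 and 24.3 under JQ1 and 23.3, 23.5 and 23.9 under RG6146. Every treated library lay far under DMSO. Its log2 fold change was -0.87 ± 0.12 after JQ1 (adjusted p = 2.5e-05) and -1.04 ± 0.12 after RG6146 (adjusted p = 4.5e-06). Nxf1, the main mRNA export receptor, moved the other way, from 65.6, 61.7 and 62.3 CPM to 92.6, 96.2 and 94.1 and 94.4, 91.6 and 99.96. It rose by 0.58 ± 0.08 (adjusted p = 4.4e-05) and 0.59 ± 0.08 (adjusted p = 3.8e-05).

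Several factors that work with Nxf1 were called as well, and those given here were named for their small p. Nxt1 and the adaptor Alyref, of the same list and named after their values were seen, did not pass the test. Nxt1 had log2 fold changes of -0.10 after JQ1 (adjusted p = 0.653) and -0.10 after RG6146 (0.675). Those of Alyref were -0.08 (0.570) and 0.01 (0.957). Rae1, the partner of Nup98, went from 139.7, 137 and 135 CPM to 183, 189.9 and 190.1 under JQ1 and 182, 183 and 191 under RG6146, with log2 fold changes of 0.45 and 0.44. Also higher after JQ1 and RG6146 were Poldip3 (0.59 and 0.49), Eny2 (0.46 and 0.45) and Ddx19a (0.42 and 0.50), a helicase of the cytoplasmic face. The Ddx19a call after JQ1 was lost without DMSO replicate 2 and JQ1 replicate 2 together (adjusted p = 0.0625) and with library size scaling (0.0538). Mcm3ap, the scaffold that Eny2 binds in the TREX-2 complex, fell by 0.57 and 0.49 on the log2 scale. The call after RG6146 was lost when DMSO replicate 1 was left out (adjusted p = 0.0529) or in DESeq2 (0.0728). Over the 25 tested genes of RNA export, 8 rose and 3 fell after JQ1, or 44.0% called beside 28.9% of all genes. After RG6146 5 rose and 3 fell, or 32.0% beside 26.0%. Of all genes, 13.6% were called higher and 15.4% lower after JQ1, and 12.5% and 13.5% after RG6146. These counts were not taken for this group alone under library size scaling.

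The Ran cycle itself changed little. Ran stood at 1102, 1099 and 1211 CPM under DMSO, 1069.9, 1133 and 1051 under JQ1 and 1082, 1099 and 1061 under RG6146. The groups overlapped, and the log2 fold changes of -0.07 ± 0.06 and -0.07 ± 0.06 did not pass the test, although with library size scaling the value after JQ1 was -0.20 (adjusted p = 0.0284). Rcc1, the exchange factor that charges Ran with GTP in the nucleus, had 0.02 and -0.02. Rangap1, which makes Ran hydrolyse GTP in the cytoplasm, rose by 0.30 ± 0.07 (adjusted p = 0.00400) and 0.26 ± 0.07 (adjusted p = 0.0112), calls that library size scaling ended (0.109 and 0.153), as did leaving out DMSO replicate 2 for RG6146 (0.0555). Cse1l, an exportin outside the symbol rule that returns importin alpha to the cytoplasm, had 0.22 ± 0.08 after JQ1 at an adjusted p of 0.0498 that 16 of 19 alternatives took past 0.05, and 0.14 ± 0.08 after RG6146 (adjusted p = 0.215).

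At the pore, the membrane proteins of the list went both ways: of 3 tested, 1 rose and 1 fell after each compound. Of all genes, 13.6% were called higher and 15.4% lower after JQ1, and 12.5% and 13.5% after RG6146. Pom121, which seeds new pores, rose by 0.36 ± 0.08 after JQ1 (adjusted p = 0.00306, or 0.0533 with library size scaling) and 0.38 ± 0.08 after RG6146 (adjusted p = 0.00224). Ndc1, named after its values were seen, had log2 fold changes of -0.25 ± 0.09 (adjusted p = 0.0484) and -0.37 ± 0.09 (adjusted p = 0.00547). Its call after JQ1 lay at the edge, and its calls were not followed over the alternatives. Tmpo, a lamina-binding protein of the inner nuclear membrane, fell by 0.51 and 0.48 on the log2 scale (adjusted p = 1.3e-04 and 2.5e-04). The basket protein Tpr had 0.04 and 0.13 and Ranbp2, the large filament protein of the cytoplasmic face, 0.01 and 0.13, and neither passed the test.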

How the data were processed

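The authors deposited a table of raw counts of reads per gene for 9 libraries of QuantSeq 3′ RNA sequencing. The submitters' processing notes name, without roles, build mm10, HISAT2 2.1.0, featureCounts (Subread), limma, cutadapt 1.7, FastQC 0.11.5 and bcl2fastq 2.17.1.14. Which annotation release and strand setting were used is not given in the sources used here. Symbols and positions came from GENCODE M21. The 92 spike-in rows stayed out of library sizes and tests.

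Genes passing filterByExpr (minimum count 10) were scaled by TMM in edgeR 4.0.16 (R 4.3.3) and tested by the robust quasi-likelihood test over all 9 libraries with group as the only term. Calls needed a Benjamini-Hochberg adjusted p below 0.05 over 11002 genes. Errors of log2 fold changes are model standard errors, 95% intervals are Wald intervals without a prior count, and levels are TMM-normalised CPM. Marker sums are CPM without TMM. The procedure was tested on simulated data. Members, gene lists and named-gene rule were chosen with earlier results of these data known. Values in every library were given for members called after either compound, up to 8 by smallest p in each direction, and for Xpo1, Kpnb1, Kpna2, Nup98, Nup153 and Nup214 whatever their result, and further for Kpna6, Nup107 and Nup133, chosen after their values were seen. Of other pathway genes, up to 8 with the smallest p and 7 fixed ones were named, and Alyref2, Alyref, Nxt1, Ndc1, Ahctf1, Seh1l and Sec13 after their values were seen. Alternatives were other scalings, DESeq2 1.42.0, other filters, a replicate block, a test against a 1.5-fold change and left-out libraries. CCAAT and GGGCGG were added to the motif search later than CACGTG. Protein features were not analysed here.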

Additional observations from a re-analysis of the deposited data

How the results depend on the processing

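No result changed direction while called under the 19 alternatives. With ERCC scaling the calls fell to 1 member after either compound, 1 other pathway gene after either compound, 1196 of all genes after JQ1 and 1082 after RG6146, and rose to 4 for RG6146 against JQ1. Standard errors grew with it, to 0.23 to 0.26 for the named genes that lost their calls, and with ERCC scaling plus a replicate block 9 and 7 members were called. The test against a 1.5-fold change left 0 members after either compound, 0 and 1 other pathway genes, and 599, 532 and 0 of all genes for JQ1, RG6146 and their difference. DESeq2 called 7 and 6 members, 13 other pathway genes after JQ1, and 1902 of all genes after RG6146. RG6146 against JQ1, with 1 gene called, had 17 without the count filter, 0 at a mean of at least 10 CPM, 0 without DMSO replicate 2 and JQ1 replicate 2 together, and 0 to 2 with 1 library left out. Leaving out 1 library gave 7 to 11 members after JQ1 and 6 to 8 after RG6146.

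By the genes' deviations from group means, which correlated at -0.06 to 0.10 between same-numbered libraries, the numbers were not taken to pair the libraries. The spike-in share, 0.958% to 1.51%, was yet highest in replicate 1 and lowest in replicate 3 of every group, and whether a number marks shared handling was not tested. With the replicate block, 9 and 7 members and 0 genes for RG6146 against JQ1 were called. It ended the calls of Nup188 after JQ1 (adjusted p = 0.0504) and Kpna3 after RG6146 (0.0617). Calls of Kpna2, Kpna4, Nup93, Nup37 and Xpo4 after both compounds, Xpo1 and Xpo7 after JQ1 and Kpna1 after RG6146 held under every alternative but ERCC scaling, which Nup37 (JQ1) and Kpna4 (RG6146) also passed, and the 1.5-fold test. Depth limits Nup98 and Nup210l most. The cause of these shifts was not tested.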
